A study of Mus musculus with 24 samples.

Results

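The genes described here are the Hox genes of the mouse, taken by symbol as every Hoxa, Hoxb, Hoxc or Hoxd gene with a paralog number, without the antisense genes that lie among them. The annotation holds 39 such genes and the count files hold 38 of them, among 39179 genes counted. The 37 described here are 10 Hoxa, 10 Hoxb, 9 Hoxc and 8 Hoxd genes, and Hoxd4 was not analysed here. A filter on low counts passed 30 of the 37. Hoxb1, Hoxb13, Hoxc12, Hoxc13, Hoxd1, Hoxd12 and Hoxd13 did not pass it and are given as levels only. Because a gene could pass through a single group with a high level, counts and medians over the 30 tested genes are descriptions of those genes and not of the whole family.

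Hox genes encode homeodomain transcription factors that give cells along the head-to-tail axis their positional identity. They lie in clusters, and the order of the genes along a cluster matches the order of their expression domains along the body: low-numbered genes are active from the front, and high-numbered genes only further back. Genes with the same number in different clusters are paralogs, descended from 1 ancestral gene. In the gut, Hox transcripts are best known from the mesenchyme and muscle, with part of the expression in the epithelium. Cdx2, a homeobox gene of the related ParaHox group, specifies the intestinal epithelium, and Cdx proteins are known to activate Hox genes in the embryo.

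In GRCm38 coordinates the described Hoxa genes lie on the minus strand of chromosome 6 between 52162417 (Hoxa2) and 52260880 (Hoxa13). The Hoxb genes lie on the plus strand of chromosome 11 between 96194316 and 96368256, the Hoxc genes on the plus strand of chromosome 15 between 102921103 and 103036852, and the Hoxd genes on the plus strand of chromosome 2 between 74668310 and 74765142. Paralog numbers 1 to 3 are called anterior below, 4 to 8 central and 9 to 13 posterior, which makes 7, 14 and 16 genes. Exons of some members overlap those of other genes, and the kit does not mark the strand, so reads of the partners could not be told apart. The overlap was 61.9% of the exon length for Hoxd3, 52.9% for Hoxb3, 35.0% for Hoxa11 (with its antisense gene), 27.3% for Hoxb2 and 27.1% for Hoxa3. These 5 genes had the largest overlaps. Smaller ones, from 20.38% for Hoxa7 to 1.52% for Hoxa9, were found for Hoxa2, Hoxa4, Hoxb5, Hoxc5, Hoxc10, Hoxd10 and Hoxd11. Values of all these genes are therefore uncertain.

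The study measured RNA of dissected gut by sequencing, in 24 libraries that form 8 groups of 3. Wild-type (WT) cecum, WT stomach and cecum of mice heterozygous for Cdx2 (Cdx2+/-) came from untreated animals. Cecum of conditional Cdx2 mutants (Cdx2-/-, genotype Cdx2f/f::AhCreERT) came as 2 sets, replicates 1 to 3 (set 1) and 4 to 6 (set 2), from mice given tamoxifen and β-naphthoflavone. The Cre of these mice is driven by the Cyp1a1 (Ah) promoter, which β-naphthoflavone switches on. Cecum and ileum of mice that also carried a mutant Apc allele (Cdx2-/-;Apc+/-, genotype Cdx2f/f::AhCreERT::ApcD14/+) had the same treatment. Ileum of Apc+/- mice (ApcD14/+) was untreated, and for replicates 1 and 3 of that group the genotype entry names the floxed allele and the Cre while the description says that Cdx2 is not floxed. Treatment therefore went with the Cdx2-/- genotype in every comparison with an untreated group, and the effects of the 2 cannot be told apart. The labels do not say whether each replicate is another animal. P-values therefore rest on the spread between these libraries, which may be technical.

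Levels are given as normalised read counts scaled to a common library size (CPM, a read count relative to the library's total), and levels of different genes are compared only per kilobase of merged exon. Between 36567685 and 87975179 reads per library fell in genes. Cdx2 measured 623, 663 and 408 CPM in the WT cecum, 118, 116 and 116 CPM in the Cdx2+/- cecum, 287, 168 and 165 CPM in set 1 and 148, 130 and 349 CPM in set 2 of the Cdx2-/- cecum, and 151, 122 and 137 CPM in the Cdx2-/-;Apc+/- cecum. Every mutant cecum library was below every WT cecum library, and the log2 fold change, given with its standard error (SE) and adjusted p throughout, was -1.44 ± 0.39, adjusted p = 0.00427 in the Cdx2-/- cecum. Which exon is floxed is not given in the sources used here, so reads from an undeleted remainder count as Cdx2. In the ileum Cdx2 stood at 90.1, 63.3 and 112 CPM with Apc+/- and 78.9, 178 and 36.9 CPM with Cdx2-/-;Apc+/-, and the groups overlapped (0.14 ± 0.47, adjusted p = 0.981), so no fall of the targeted transcript was detected in the ileum libraries labelled Cdx2-/-;Apc+/-. Its sister gene Cdx1 fell too in the Cdx2-/- cecum (-3.28 ± 0.65, adjusted p = 0.000301).

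Marker lists chosen for each tissue bear on the labels. The summed level of 7 cecum and colon markers was 20477 to 37450 CPM in the WT cecum, 3701 to 4969 CPM in the Cdx2+/- cecum and 29.5 to 2297 CPM in the 6 Cdx2-/- cecum libraries. The Cdx2+/- cecum held 8 stomach markers at 24400 to 26603 CPM, 7 ileum markers at 1583 to 4229 CPM and 6 squamous markers at 45.6 to 755 CPM, against 4.47 to 1024, 57.1 to 103 and 1.20 to 4.13 CPM in the WT cecum. None of these markers was without reads in every library of a group. In set 1, replicates 2 and 3 differed far less from each other (chi-square per degree of freedom 7.03) than other pairs of replicates did (at least 53.0), and replicate 1 stood apart. These are bulk tissue samples, so fewer cells of a type and less RNA per cell cannot be told apart.

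In the WT gut the Hox profile was long in the cecum and short in the stomach. At a level of at least 0.5 CPM in all 3 libraries, 26 of the 37 genes were present in the WT cecum and 15 in the WT stomach. The most posterior gene at that level was Hoxa13, Hoxb9, Hoxc10 and Hoxd11 in the WT cecum, and Hoxa5, Hoxb8, Hoxc5 and Hoxd8 in the WT stomach. In the Apc+/- ileum it was Hoxa9, Hoxb9, Hoxc8 and Hoxd8. No read of Hoxa13 or Hoxc11 was counted in the stomach or in either ileum group, and none of Hoxc12 in any of the 24 libraries.

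**Figure D1:**
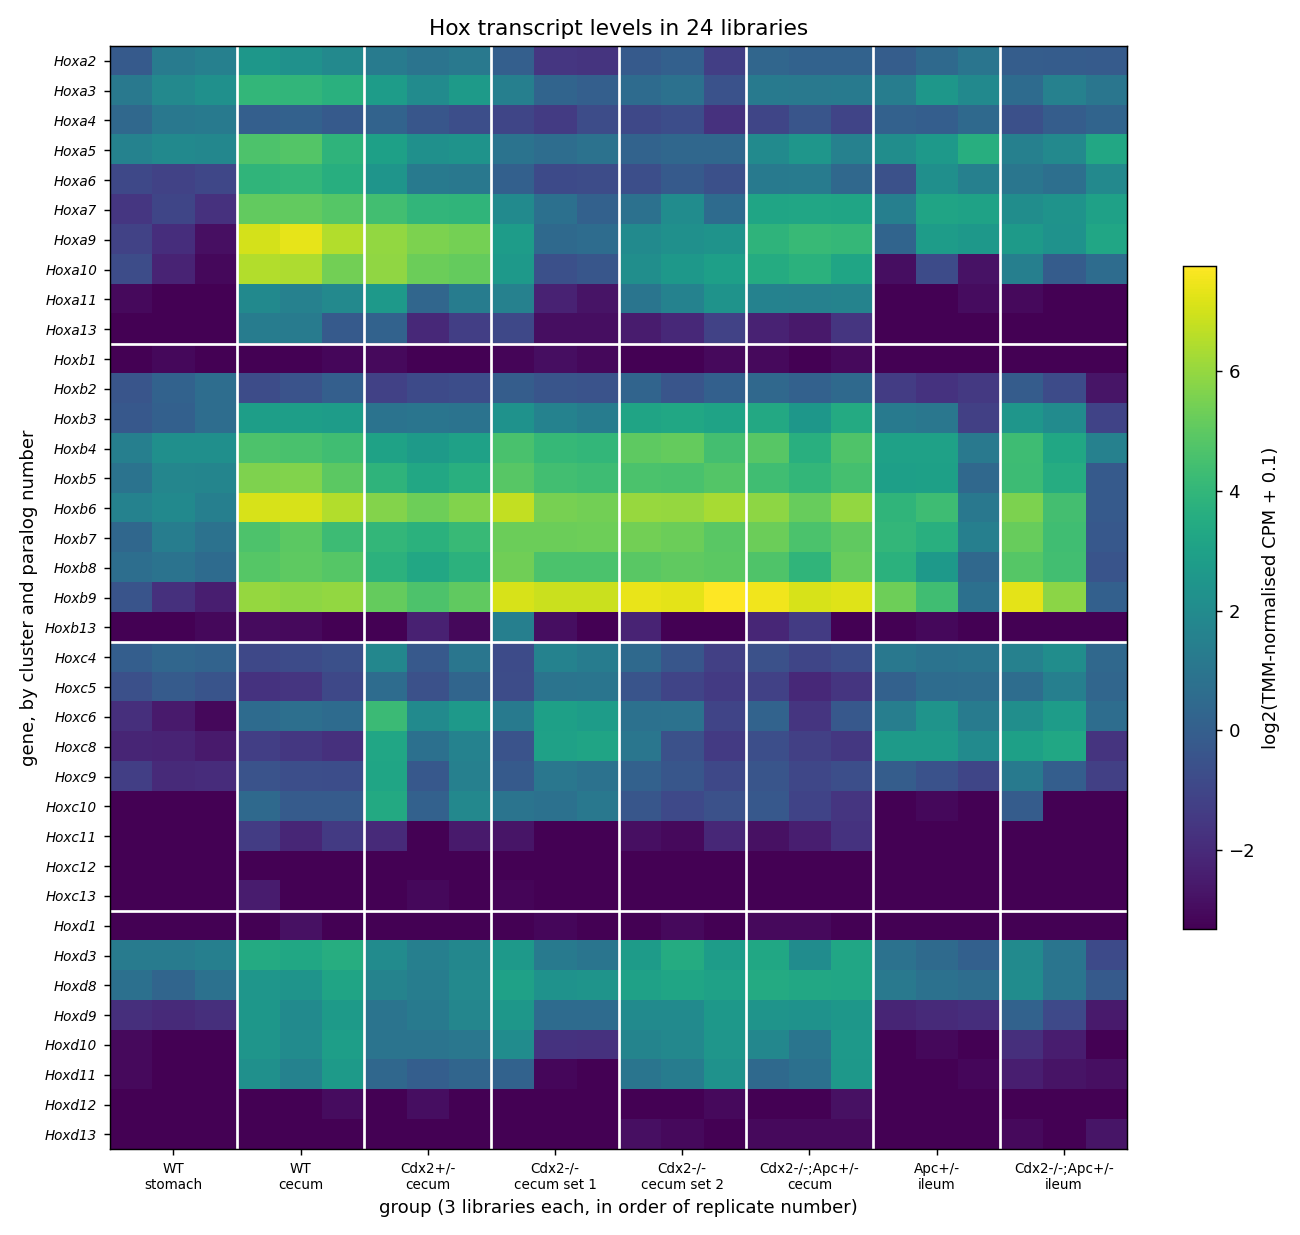
Levels of the 37 described Hox genes (rows, by cluster and paralog number, clusters divided by white lines) in each of the 24 libraries (columns, 3 per group), as log2 of CPM plus 0.1, with dark blue lowest and yellow highest. The Hoxa rows are bright in the WT cecum and dark in the 6 Cdx2-/- cecum libraries. Hoxb9 is brightest in the Cdx2-/- and Cdx2-/-;Apc+/- cecum and in replicate 1 of the Cdx2-/-;Apc+/- ileum.

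Per kilobase, Hoxb6 was the highest Hox gene of the WT cecum, at 69.3, 68.5 and 45.4 CPM per kb. Hoxb6 belongs to the central genes, and its 3 values stood above those of every other Hox gene there. Hoxb9 followed at 24.0 ± 1.13 (SD, n = 3) CPM per kb, Hoxa9 at 22.9 ± 6.71 and Hoxa10 at 21.7 ± 7.71. These 3 posterior genes did not differ from one another beyond their spread. In the WT stomach the order began with Hoxa5, a regulator of stomach and lung mesenchyme, at 1.78 ± 0.211 CPM per kb, then Hoxb6 at 1.57 ± 0.279 and Hoxb4 at 1.51 ± 0.408, and neighbours in this order overlapped. All described Hox genes together reached 197 to 271 CPM per kb in the WT cecum, 11.03 to 15.35 in the WT stomach and 25.7 to 56.9 in the Apc+/- ileum.

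Most tested Hox genes were lower in the stomach than in the cecum, and the medians of the tested genes fell further from anterior to posterior. Of the 30 tested genes, 24 were lower in the WT stomach and 1 was higher at an adjusted p under 0.05 (the threshold for a call throughout), where 21.6% of all genes tested were lower and 22.1% higher. The median log2 fold change was -2.10 over the 5 anterior genes tested, -3.27 over 14 central and -7.67 over 11 posterior genes, the last with genes at 0 set to their bound, against 0.04 over all 20502 genes tested. The posterior genes Hoxb13, Hoxc12, Hoxc13, Hoxd12 and Hoxd13, at 0.0795 CPM or less in both regions, did not pass the filter and are not in this median. Genes near 0 in the stomach could pass through their cecum level, so the medians do not test a gradient. The central gene Hoxa7 measured 0.237, 0.397 and 0.200 CPM in the stomach and 34.4, 34.1 and 28.2 CPM in the cecum (-6.85 ± 0.62, adjusted p = 6.26e-08). Hoxa9, a posterior gene also known from blood stem cells, measured 0.355, 0.170 and 0.0364 CPM against 131, 163 and 88.7 CPM (-9.42 ± 0.86, adjusted p = 7.08e-08). No stomach library came near the cecum libraries in either gene.

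The furthest posterior genes were at or near 0 in the stomach, so their differences are bounds or ratios of counts. Hoxa13, which patterns the hindgut and the limb, had 0 reads in the stomach and 2.38, 2.36 and 0.787 CPM in the cecum, at least 32.5-fold lower when 3 reads per library are allowed. By the same floor Hoxc10 was at least 16.9-fold lower and Hoxc11 at least 4.01-fold lower. Hoxd10 had 1 read in the 3 stomach libraries and 877 in the cecum, a ratio of 909 (95% counting interval 163 to 35960) after scaling for depth. Hoxd11 had 1 read against 740, a ratio of 767 (95% counting interval 137 to 30350), and Hoxa11 1 against 516, a ratio of 535 (95% counting interval 95.6 to 21170). These intervals, like the floors, cover counting error only.

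In Hoxb and Hoxd the posterior genes also had the lowest values, but the values did not follow the gene order strictly. Within Hoxb, Hoxb3 measured 0.729, 0.946 and 1.47 CPM in the stomach and 7.31, 7.36 and 6.94 CPM in the cecum (-2.77 ± 0.67, adjusted p = 0.00241), and Hoxb6 2.90, 3.69 and 2.64 CPM against 136, 135 and 89.1 CPM (-5.28 ± 0.94, adjusted p = 0.000147). Hoxb7 (-3.81 ± 0.81) and Hoxb8 (-4.26 ± 0.87) differed less than Hoxb6, with no test between them. Hoxb9, the most posterior Hoxb gene tested, measured 0.631, 0.189 and 0.0910 CPM against 64.2, 58.5 and 62.4 CPM (-7.67 ± 1.32, adjusted p = 0.000106). Within Hoxd, Hoxd3 measured 2.37, 2.31 and 2.62 CPM against 10.8, 9.54 and 11.9 CPM (-2.14 ± 0.54, adjusted p = 0.00351) and Hoxd9 0.177, 0.151 and 0.182 CPM against 5.72, 3.89 and 6.39 CPM (-4.95 ± 0.69, adjusted p = 1.01e-05), while Hoxd8 was close to Hoxd3 (-2.13 ± 0.40). None of these 5 genes overlapped between the regions. The median over the tested genes was -5.09 in Hoxa with genes at 0 at their bound, -3.90 in Hoxb and -4.95 in Hoxd. In Hoxc, 3 of 7 were lower, and Hoxc6, at 0.177, 0.0757 and 0.0182 CPM in the stomach and 1.38, 1.55 and 1.35 CPM in the cecum (-3.96 ± 0.88, adjusted p = 0.00120), was the highest of them in the cecum.

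Of the 7 genes that were not tested, Hoxb1, Hoxc13, Hoxd1, Hoxd12 and Hoxd13 reached at most 0.0795 CPM in any library and Hoxc12 had no read. They lie at or next to the ends of their clusters.

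A few genes did not follow this order. Hoxa4 measured 1.24, 2.04 and 2.26 CPM in the stomach and 0.927, 0.983 and 0.787 CPM in the cecum. It was the only member called higher in the stomach in the fit of all libraries (1.04 ± 0.36, adjusted p = 0.0246). Its 3 stomach libraries stood above the 3 cecum libraries, but the call was lost in 4 of the 6 fits that left out 1 library of either group. Within paralog group 4 the share of Hoxa4 in the summed level per kilobase was 36.0 to 39.9% in the stomach and 5.45 to 6.20% in the cecum, where Hoxb4 held 91.9 to 93.0%. Hoxb2, Hoxc4, Hoxc5, Hoxc8 and Hoxc9 were not called in either direction between stomach and cecum in the fit of all libraries. A fit of only these 2 groups called Hoxc4 higher in the stomach (1.06, adjusted p = 0.0252). It called Hoxc8 (-1.305, adjusted p = 0.03435) and Hoxc9 (-1.39, adjusted p = 0.02605) lower. The anterior gene Hoxa2 was called lower (-1.28 ± 0.49, adjusted p = 0.0428) in the fit of all libraries, but in 6 of 13 alternatives only.

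In the Apc+/- ileum 9 of the 11 tested posterior genes were lower than in the WT cecum, all but Hoxb9 and Hoxc9, and 3 central Hoxc genes were higher. Against the WT cecum 22 of the 30 tested genes were lower and 3 were higher, where 27.2% of all genes were lower and 28.1% higher. The groups differ in the Apc allele as well as the region, and the Apc+/- ileum stands here in place of a WT ileum. The median was -1.90 for the anterior, -1.73 for the central and -5.18 for the posterior genes that passed the filter, with genes at 0 at their bound, against 0.03 over all genes tested. Hoxa9 still measured 1.09, 6.96 and 5.87 CPM in the Apc+/- ileum, while Hoxa10 measured 0.0340, 0.483 and 0.0463 CPM (-8.60 ± 1.11, adjusted p = 3.45e-06). The step between these 2 neighbouring genes was not tested. Hoxd10 had 1 read in the Apc+/- ileum against 877 in the WT cecum, a ratio of 1018 (95% counting interval 182 to 40240), and Hoxa13 had none and was at least 36.2-fold lower.

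The 3 genes that were higher in the Apc+/- ileum were the central Hoxc genes Hoxc4, Hoxc5 and Hoxc8. Hoxc8, a gene of the trunk, measured 6.53, 6.50 and 3.83 CPM in the Apc+/- ileum and 0.318, 0.251 and 0.193 CPM in the WT cecum (4.48 ± 1.12, adjusted p = 0.00232). Hoxc4 measured 2.08, 1.74 and 1.85 against 0.424, 0.481 and 0.550 CPM (1.95 ± 0.61, adjusted p = 0.0105) and Hoxc5 0.970, 1.41 and 1.47 against 0.212, 0.230 and 0.431 CPM (2.10 ± 0.52, adjusted p = 0.00198). All 3 separated the groups without overlap, and all 3 calls held in each of 14 alternatives. The summed smooth muscle markers were 767 to 1133 CPM in the Apc+/- ileum and 1519 to 4720 CPM in the WT cecum, with 9 of 10 lower. Of the enteric neuron and glia markers 5 of 10 were lower and 1 higher, and 6 of 8 fibroblast markers were higher and 1 lower. Over all genes tested 27.2% were lower and 28.1% higher. The part of these cell types in the Hox differences was not tested. In the stomach Hoxc8 lay at 0.118, 0.114 and 0.0728 CPM, with no call against the cecum in the fit of all libraries.

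**Figure D2:**
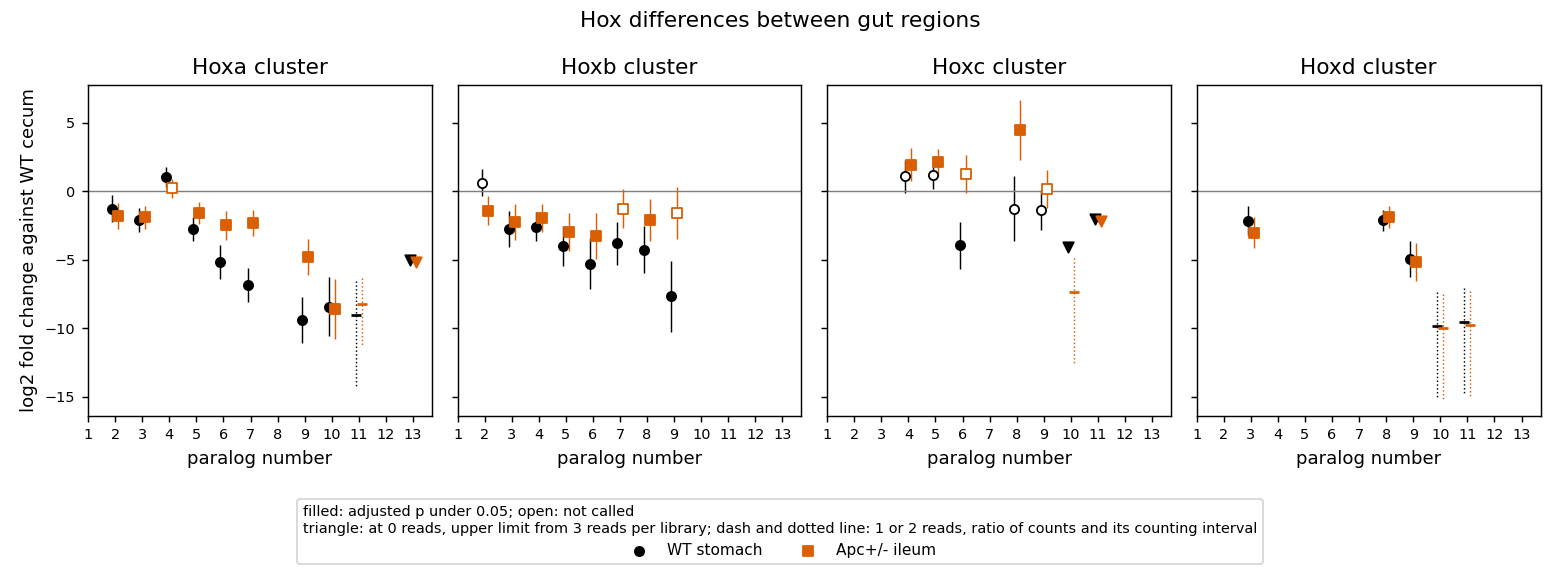
Log2 fold change of each tested Hox gene in the WT stomach (black) and the Apc+/- ileum (orange) against the WT cecum, by cluster and paralog number, with 95% intervals as lines; filled points passed an adjusted p of 0.05, triangles mark the limit for genes with 0 reads, and dashes with dotted lines mark ratios from 1 or 2 reads. In the stomach Hoxb9 is the lowest Hoxb gene, at -7.67, and filled ileum points stand above 0 at Hoxc4, Hoxc5 and Hoxc8 alone.

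In the Cdx2-/- cecum the Hoxa cluster was lower almost as a whole. Of the 30 tested Hox genes 11 were lower than in the WT cecum and 3 were higher, where 26.2% of all genes tested were lower and 26.9% higher. The 11 lower genes included 9 of the 10 Hoxa genes, all but Hoxa11, with none of the 8 Hoxb, 1 of the 7 Hoxc and 1 of the 5 Hoxd genes. The median log2 fold change was -3.64 in Hoxa, 0.04 in Hoxb, 0.92 in Hoxc and -1.003 in Hoxd, against 0.04 over all genes tested. By position, 2 of 5 anterior, 4 of 14 central and 5 of 11 posterior genes were lower.

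Hoxa9 had the largest fall of the Hox genes tested in this comparison. It measured 131, 163 and 88.7 CPM in the WT cecum, 6.80, 1.30 and 1.43 CPM in set 1 and 3.82, 4.62 and 5.07 CPM in set 2 of the Cdx2-/- cecum. The highest Cdx2-/- library lay far below the lowest WT library, with a log2 fold change of -5.07 ± 0.51, adjusted p = 1.57e-07. Its neighbour Hoxa10, which patterns the trunk and the uterus, measured 88.5, 82.5 and 42.1 CPM in the WT cecum, 6.29, 0.554 and 0.672 CPM in set 1 and 4.36, 5.95 and 7.47 CPM in set 2. Here too no library overlapped (-4.19 ± 0.66, adjusted p = 3.01e-05), but the Cdx2-/- libraries spread widely, from replicate 2 of set 1 up to replicate 6 of set 2.

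The central Hoxa genes moved with them. Hoxa5 fell from 25.1, 27.4 and 14.6 CPM to 1.75, 1.47 and 1.71 CPM in set 1 and 1.06, 1.21 and 1.20 CPM in set 2 (-4.02 ± 0.36, adjusted p = 4.08e-08). Hoxa6 went from 15.1, 16.1 and 12.1 CPM to 0.958, 0.459 and 0.504 CPM in set 1 and 0.538, 0.777 and 0.556 CPM in set 2 (-4.50 ± 0.45, adjusted p = 1.73e-07). For Hoxa7 the WT libraries held 34.4, 34.1 and 28.2 CPM, set 1 3.84, 1.58 and 0.992 CPM and set 2 1.63, 4.05 and 1.38 CPM (-3.84 ± 0.40, adjusted p = 2.43e-07). In all 3 genes every Cdx2-/- library was below every WT library, and the 2 sets overlapped each other in Hoxa6 and Hoxa7. Hoxa4, on the other hand, started low, at 0.927, 0.983 and 0.787 CPM, and reached 0.403, 0.285 and 0.487 CPM in set 1 and 0.422, 0.511 and 0.200 CPM in set 2, the smallest of the called Hoxa differences (-1.22 ± 0.31, adjusted p = 0.00278).

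At the anterior end Hoxa3, a regulator of pharyngeal organs, measured 15.9, 15.7 and 12.9 CPM in the WT cecum, 2.69, 1.09 and 0.908 CPM in set 1 and 1.34, 1.64 and 0.600 CPM in set 2 (-3.43 ± 0.36, adjusted p = 2.58e-07). Hoxa2, which patterns the hindbrain and the branchial arches, measured 5.72, 4.79 and 3.60 CPM in the WT cecum, 0.925, 0.237 and 0.218 CPM in set 1 and 0.768, 0.961 and 0.311 CPM in set 2 (-3.05 ± 0.41, adjusted p = 5.67e-06). Both were lower in all 6 Cdx2-/- libraries than in any WT library. At the posterior end Hoxa13 fell from 2.38, 2.36 and 0.787 CPM to 0.435, 0.0317 and 0.0336 CPM in set 1 and 0.0768, 0.143 and 0.356 CPM in set 2 (-3.31 ± 0.76, adjusted p = 0.00231). The single Hoxa gene with no call was Hoxa11, at 3.68, 2.80 and 3.61 CPM in the WT cecum, 2.79, 0.111 and 0.0504 CPM in set 1 and 1.88, 2.86 and 5.05 CPM in set 2 (-0.90 ± 0.74, adjusted p = 0.324). Replicate 1 of set 1 came close to the WT range, set 2 spanned it and replicates 2 and 3 of set 1 were far below it, and the 95% interval of the difference ran from -2.35 to 0.56.

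These 9 calls held in every one of the 18 alternatives run, among them each set alone. Replicate 1 of set 1 was higher than replicates 2 and 3 in 14 of the 15 tested Hoxa and Hoxd genes, with Hoxa4 as the exception, and lower in 5 of the 7 Hoxc genes. That library also differed in cecum and colon markers, for which set 1 ran from 29.5 to 2297 CPM, and in stomach markers, at 4689 to 21608 CPM in the set. Their part in the result was not tested.

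No Hoxb gene was called in the Cdx2-/- cecum in the fit of all libraries. Of the 8 tested, edgeR called 0, 0 had an unadjusted p under 0.05, and DESeq2 called 0. Each of these results takes the spread from all 8 groups. Among them is the Cdx2-/-;Apc+/- ileum, where Hoxb9 ran from 0.938 to 158 CPM. The part of that spread in the missing calls was not tested. A fit of only the groups compared, which takes the spread from these 9 libraries, called Hoxb5 (-0.80, adjusted p = 0.00611) and Hoxb6 (-0.78, adjusted p = 0.0496) lower and Hoxb7 (0.64, adjusted p = 0.00909) and Hoxb9 (1.31, adjusted p = 0.000121) higher. Hoxb6 measured 136, 135 and 89.1 CPM in the WT cecum, 107, 44.4 and 42.5 CPM in set 1 and 66.8, 64.0 and 78.8 CPM in set 2. The groups overlapped, and the 95% interval of the log2 fold change ran from -2.12 to 0.45 and covered both directions. Hoxb4 measured 25.5, 23.5 and 20.5 CPM in the WT cecum, 23.4, 17.0 and 16.2 CPM in set 1 and 31.9, 34.7 and 21.5 CPM in set 2 (log2 fold change 0.02 ± 0.43). Hoxb8 measured 28.8, 32.1 and 28.2 CPM, 40.7, 24.7 and 24.6 CPM and 30.4, 32.9 and 31.3 CPM in the same order (0.05 ± 0.65). For these 2 genes WT and Cdx2-/- libraries were interleaved, as they were for Hoxb2 (0.25 ± 0.44). Hoxb3 measured 7.31, 7.36 and 6.94 CPM in the WT cecum, 4.85, 2.88 and 2.44 CPM in set 1 and 8.85, 9.49 and 8.60 CPM in set 2 (-0.38 ± 0.53), set 1 below and set 2 above the WT range. Hoxb5, at 49.0, 50.7 and 31.0 CPM in the WT cecum, 29.5, 21.017 and 19.5 CPM in set 1 and 24.5, 23.6 and 27.2 CPM in set 2, separated the groups downwards without a call in the fit of all libraries (-0.85 ± 0.55, adjusted p = 0.206).

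Hoxb9, the only posterior gene of the cluster that was tested, did not pass the test in that fit, although its libraries separated. It stood at 64.2, 58.5 and 62.4 CPM in the WT cecum, 134, 115 and 116 CPM in set 1 and 168, 159 and 215 CPM in set 2. All 6 Cdx2-/- libraries were above all 3 WT libraries, but the difference was short of a call (1.27 ± 0.86, adjusted p = 0.227, interval -0.42 to 2.95). Hoxb7 measured 25.0, 30.9 and 19.1 CPM in the WT libraries against 37.8, 38.0 and 39.9 CPM in set 1 and 42.1, 38.0 and 29.8 CPM in set 2, with 1 library overlapping (0.59 ± 0.63). Hoxb13, a gene of the most posterior body, was at 2.61 CPM in replicate 1 of set 1 and at most 0.277 CPM in the other 23 libraries.

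**Figure D3:**
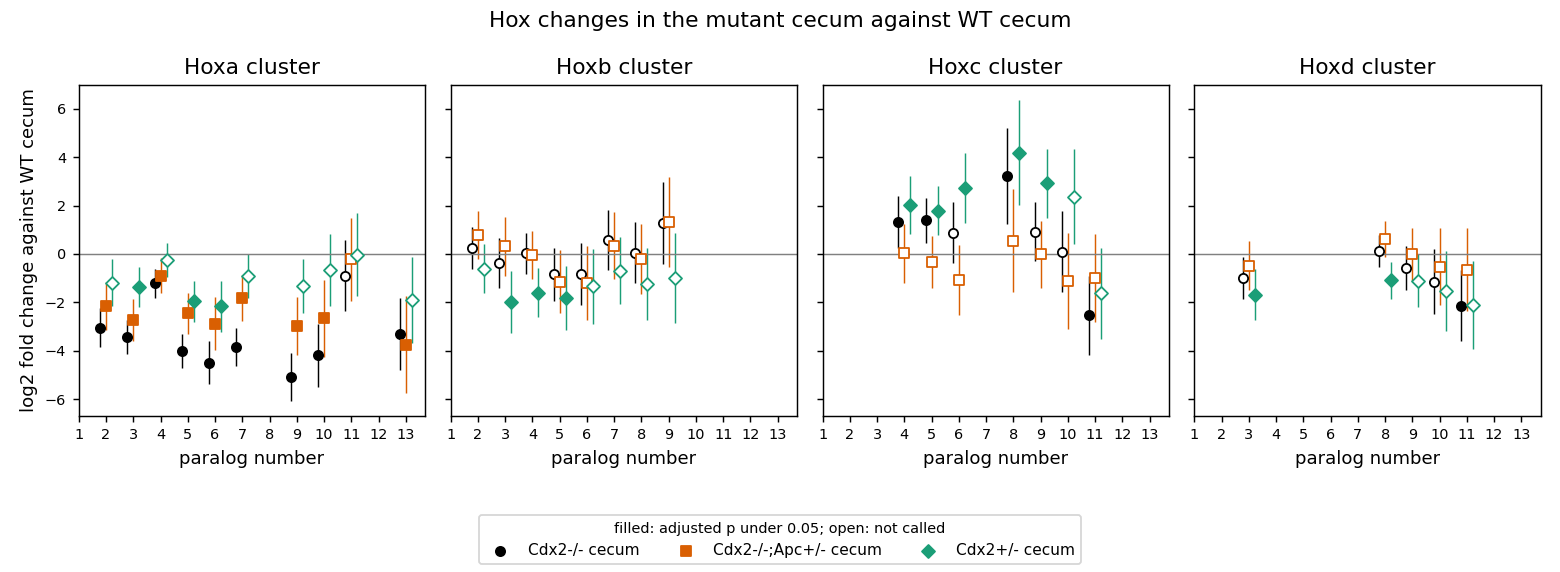
Log2 fold change of each tested Hox gene against the WT cecum in the Cdx2-/- (black circles), Cdx2-/-;Apc+/- (orange squares) and Cdx2+/- cecum (green diamonds), by cluster and paralog number, with 95% intervals as lines and filled symbols for an adjusted p under 0.05; the 3 comparisons share the WT libraries. Filled black and orange symbols lie below 0 along Hoxa, with Hoxa11 open, the black and orange symbols of Hoxb are all open, and filled green diamonds stand above 0 from Hoxc4 to Hoxc9.

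In the Hoxc cluster, which was low in the WT cecum, 3 central genes were higher. Hoxc8 measured 0.318, 0.251 and 0.193 CPM in the WT cecum, 0.620, 8.07 and 8.84 CPM in set 1 and 1.96, 0.573 and 0.267 CPM in set 2 (3.21 ± 1.02, adjusted p = 0.0122). Replicates 2 and 3 of set 1 carried most of this difference, and with set 2 alone Hoxc8 was not called. Hoxc5 measured 0.212, 0.230 and 0.431 CPM in the WT cecum, 0.490, 1.84 and 1.90 CPM in set 1 and 0.634, 0.388 and 0.267 CPM in set 2 (1.38 ± 0.47, adjusted p = 0.0177). Hoxc4 measured 0.424, 0.481 and 0.550 CPM, 0.479, 2.94 and 2.42 CPM and 1.27, 0.675 and 0.333 CPM in the same order (1.32 ± 0.55, adjusted p = 0.0495). Groups overlapped in all 3 genes, the calls of Hoxc4 and Hoxc5 were lost with set 2 alone as well, and that of Hoxc4 held in 6 of 18 alternatives. Their neighbours Hoxc6 (0.88 ± 0.64, adjusted p = 0.255) and Hoxc9 (0.92 ± 0.62, adjusted p = 0.226) were not called, and replicates 2 and 3 of set 1 were again their highest Cdx2-/- libraries. Hoxc11 was called lower (-2.54 ± 0.83, adjusted p = 0.0204) at levels of at most 0.291 CPM, and this call was lost with set 2 alone, in DESeq2, and without replicate 1 or replicate 3 of the WT cecum.

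Of the 5 tested Hoxd genes 1 was called. Hoxd11, a posterior gene best known from limb and kidney, measured 4.58, 2.91 and 6.36 CPM in the WT cecum, 1.01, 0.0158 and 0 CPM in set 1 and 1.90, 2.41 and 4.93 CPM in set 2 (-2.13 ± 0.74, adjusted p = 0.0209). 1 library of set 2 lay in the WT range and none of set 1, and with set 2 alone there was no call. The call was also lost without replicate 3 of the WT cecum and in a fit of only the groups compared (-2.09, adjusted p = 0.0921). Between the sets Hoxd11 was called higher in set 2 (3.10 ± 0.97, adjusted p = 0.0472). Hoxd10 stood at 5.38, 3.93 and 7.22 CPM in the WT cecum, 4.10, 0.206 and 0.202 CPM in set 1 and 3.07, 3.46 and 5.62 CPM in set 2, with no call (-1.15 ± 0.69, adjusted p = 0.167). Its replicates 2 and 3 of set 1 were again far below the rest. Hoxd8 stood at 5.56, 5.15 and 8.63 CPM, 7.95, 4.87 and 5.14 CPM and 7.93, 8.997 and 7.89 CPM in the same order, and the groups overlapped (0.13 ± 0.33, adjusted p = 0.771). Hoxd3 (-1.003 ± 0.44, adjusted p = 0.0609) and Hoxd9 (-0.58 ± 0.47, adjusted p = 0.314) were not called by edgeR, and DESeq2 called Hoxd3 lower.

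Between the 2 Cdx2-/- sets 1 Hox gene was higher and 1 lower in set 2, where 4.03% of all genes were higher and 6.45% lower. The gene called lower was Hoxc5 (-1.70 ± 0.50, adjusted p = 0.0374). Of 11 alternatives, 4 kept the call of Hoxc5 and 3 that of Hoxd11. At an unadjusted p under 0.05 there were 7 genes, and DESeq2 called 4.

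Because members of a cluster moved together, the upstream sequences are shown for genes with contrasting behaviour: Hoxa7, Hoxa9 and Hoxa10, which were lower in the Cdx2-/- cecum, and Hoxb8, which was not called. They are the 250 bases before the start in RefSeq's GRCm38.p6 tables, written 5′ to 3′ on the gene's strand, with capitals marking TTTAT or its reverse complement ATAAA, the core of the sequence that Cdx proteins bind. Hoxa7 (chr6:52218574-52218823, minus strand) held 2 matches, Hoxa9 (chr6:52227371-52227620, minus) none, Hoxa10 1 before each of its 2 starts (the upstream of the nearer one, chr6:52234940-52235189, minus, is shown) and Hoxb8 (chr11:96281655-96281904, plus) 6, the most of the 21 described Hox genes with a sequence there.
Hoxa7: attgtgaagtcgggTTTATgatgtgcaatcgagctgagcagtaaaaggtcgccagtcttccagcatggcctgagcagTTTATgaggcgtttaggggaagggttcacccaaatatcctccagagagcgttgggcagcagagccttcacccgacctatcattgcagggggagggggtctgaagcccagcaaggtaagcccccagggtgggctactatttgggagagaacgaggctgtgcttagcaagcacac
Hoxa9: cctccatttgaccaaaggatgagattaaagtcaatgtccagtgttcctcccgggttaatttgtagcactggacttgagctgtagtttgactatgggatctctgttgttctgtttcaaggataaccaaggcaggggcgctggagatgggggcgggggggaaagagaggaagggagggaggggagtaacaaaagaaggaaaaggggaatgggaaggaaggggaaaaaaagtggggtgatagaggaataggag
Hoxa10: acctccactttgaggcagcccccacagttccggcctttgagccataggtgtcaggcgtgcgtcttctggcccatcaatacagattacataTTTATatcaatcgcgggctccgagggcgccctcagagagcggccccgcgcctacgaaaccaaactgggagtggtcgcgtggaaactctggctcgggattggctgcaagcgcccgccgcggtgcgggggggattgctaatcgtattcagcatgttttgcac
Hoxb8: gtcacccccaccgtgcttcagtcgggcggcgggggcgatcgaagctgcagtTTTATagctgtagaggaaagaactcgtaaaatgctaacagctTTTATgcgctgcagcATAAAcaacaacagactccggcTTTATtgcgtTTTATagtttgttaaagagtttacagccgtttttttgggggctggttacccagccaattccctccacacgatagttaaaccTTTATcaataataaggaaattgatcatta
Overlapping matches were allowed, and both strands were searched. The tables held 21 of the 37 genes (9 Hoxa, 3 Hoxb, 1 Hoxc and 8 Hoxd), of which 7 (33.3%) had a match, against 37.3% of 32851 promoters of the same length. The genes with a match were Hoxa2, Hoxa7, Hoxa10, Hoxb8, Hoxd3, Hoxd11 and Hoxd13. A match is a description of these letters and not of binding.

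The summed level per kilobase shows how the balance between the clusters shifted. Hoxa genes made up 34.0 to 39.7% of the summed Hox level in the WT cecum, 30.1 to 37.1% in the Cdx2+/- cecum, 2.14 to 4.80% in the 6 Cdx2-/- libraries and 8.28 to 14.1% in the Cdx2-/-;Apc+/- cecum. Hoxb genes made up 56.4 to 57.8% in the WT cecum and 88.3 to 90.6% in the Cdx2-/- cecum. The sum over all described genes was 131 to 196 CPM per kb in the Cdx2-/- cecum against 197 to 271 in the WT cecum. Hoxb summed to 116 to 176 against 114 to 153 CPM per kb, and Hoxa to 2.82 to 9.12 against 66.8 to 108.

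**Figure D4:**
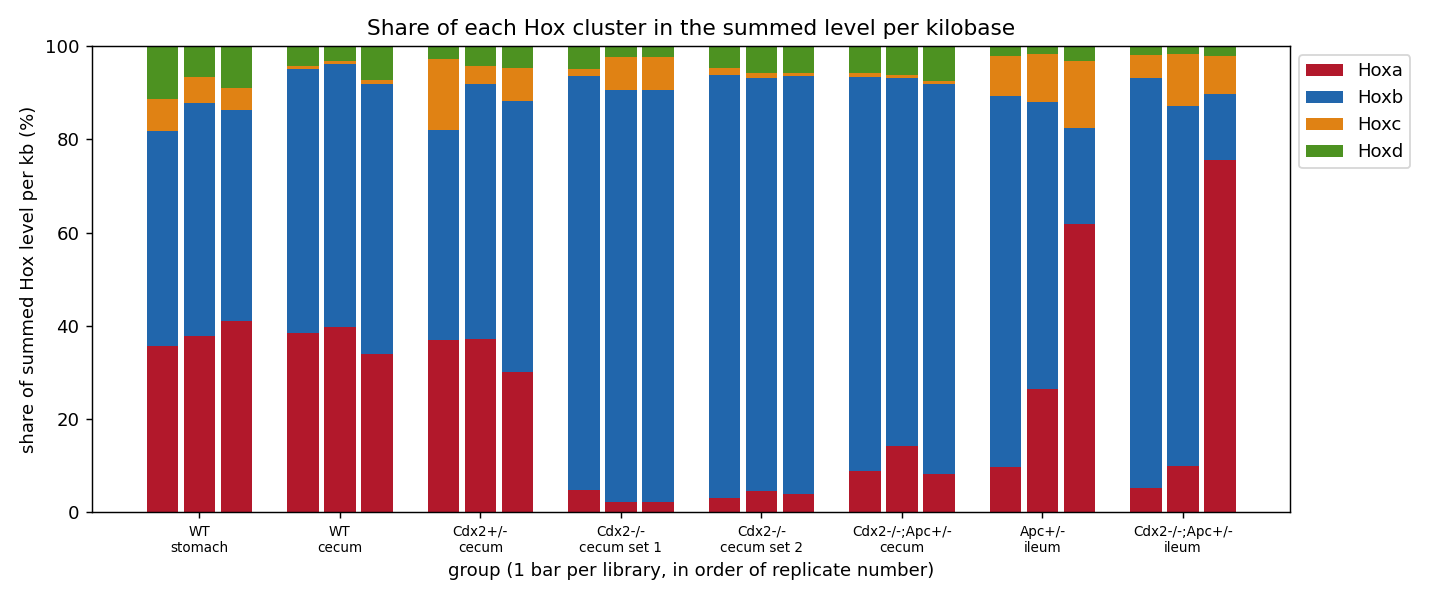
Share of the Hoxa (red), Hoxb (blue), Hoxc (orange) and Hoxd (green) genes in the summed Hox level per kilobase of exon, in percent, with 1 bar per library. The red part is between 34.0 and 39.7% in the WT cecum and at most 4.80% in the Cdx2-/- cecum, and the third bar of each ileum group is mostly red.

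In paralog group 9 Hoxa9 and Hoxb9 shared most of the level in the WT cecum, and Hoxb9 held nearly all of it in the Cdx2-/- cecum. Hoxa9 made up 36.7, 45.8 and 54.2% of the group's summed level per kilobase (lowest, median and highest library) in the WT cecum, and Hoxb9 42.1, 48.5 and 56.0%. In the 6 Cdx2-/- libraries Hoxa9 made up 0.501, 1.02 and 2.17% and Hoxb9 92.5, 95.7 and 96.5%. In the Cdx2-/-;Apc+/- cecum the share of Hoxa9 was 3.50, 4.69 and 5.46%. Hoxd9 held 3.37 to 6.90% in the WT cecum and 1.38 to 4.73% in the Cdx2-/- cecum, and Hoxc9 at most 1.80% in both. Part of this shift in shares was the Hoxb9 level itself, which was higher in each Cdx2-/- library than in each WT library, without a call in the fit of all libraries.

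Hoxb9 was the highest Hox gene per kilobase in both Cdx2-/- sets and in the Cdx2-/-;Apc+/- cecum. It stood at 52.1, 44.7 and 45.1 CPM per kb in set 1, 65.1, 61.9 and 83.7 in set 2 and 70.2, 51.9 and 57.0 in the Cdx2-/-;Apc+/- cecum. Hoxb6 came next, at 32.9 ± 18.6, 35.6 ± 4.01 and 26.5 ± 6.86 CPM per kb (SD, n = 3), and Hoxb7 followed. In set 1 a library of Hoxb6 overlapped the range of Hoxb9. The 3 leading genes of those groups were thus all Hoxb genes. By group mean the same 3 led in both ileum groups, with Hoxb9 at 7.93 ± 7.36 CPM per kb with Apc+/- and 27.9 ± 30.9 with Cdx2-/-;Apc+/- (SD, n = 3). Neighbouring ranks overlapped in the ileum. In replicate 3 of these groups Hoxa5 stood above all 3, at 6.40 and 5.21 CPM per kb. Hoxa9 held the third rank in the WT cecum and Hoxa10 the second in the Cdx2+/- cecum. Taking the longest transcript in place of merged exons left 22 of the 24 leading places to the same genes.

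Paralog group 10 has no Hoxb member and behaved otherwise. In the WT cecum Hoxa10 made up 74.5, 88.2 and 90.7% of its summed level per kilobase, Hoxd10 7.79, 9.65 and 23.0% and Hoxc10 1.498, 2.17 and 2.48%. In set 1 Hoxc10 took 18.4, 75.7 and 77.4%, and the 2 higher shares were replicates 2 and 3. In set 2 it was Hoxd10 that took 48.1, 50.1 and 54.5%, with Hoxa10 at 39.5, 40.2 and 46.0%. Hoxc10 itself measured 1.27, 0.795 and 0.817 CPM in the WT cecum, 1.81, 1.68 and 2.07 CPM in set 1 and 0.672, 0.450 and 0.578 CPM in set 2, with no call (0.10 ± 0.86, adjusted p = 0.935). In group 13 Hoxa13 made up 95.6 to 100% of the level in the WT cecum, and Hoxb13, Hoxc13 and Hoxd13 were at 0.0795 CPM or less there.

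**Figure D5:**
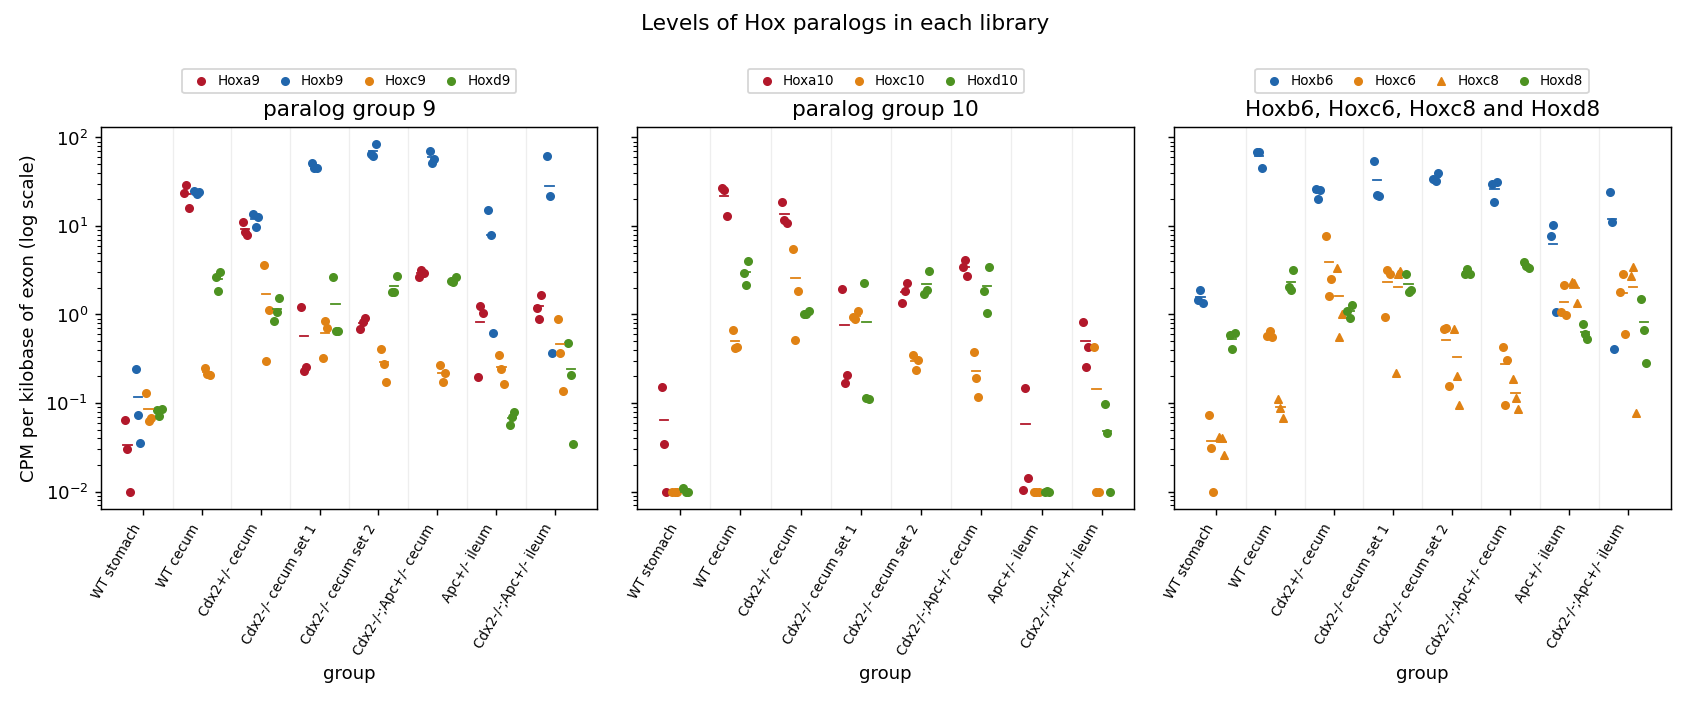
Level per kilobase of exon (log axis) of the paralog 9 genes, the paralog 10 genes, and Hoxb6, Hoxc6, Hoxc8 and Hoxd8 in each library (points) with the group mean (dash); values under 0.01 are drawn at 0.01. Hoxa9 and Hoxb9 lie together in the WT cecum and far apart in the Cdx2-/- cecum.

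In the Cdx2-/-;Apc+/- cecum all calls of the fit of all libraries, and all of DESeq2, were Hoxa genes. Against the WT cecum 9 of the 10 Hoxa genes were lower, and 0 of the 20 tested genes of the other clusters were called or had an unadjusted p under 0.05, where 26.1% of all genes tested were lower and 26.6% higher. The median was -2.56 over Hoxa, against 0.07 over all genes tested. Hoxa9 measured 14.8, 17.6 and 16.4 CPM (-2.97 ± 0.61, adjusted p = 0.000491), Hoxa10 11.3, 13.5 and 8.89 CPM (-2.66 ± 0.81, adjusted p = 0.00994) and Hoxa6 2.30, 2.34 and 1.25 CPM (-2.88 ± 0.55, adjusted p = 0.000266). Hoxa3 measured 2.28, 2.13 and 2.29 CPM (-2.73 ± 0.45, adjusted p = 5.88e-05), Hoxa5 3.81, 5.57 and 2.82 CPM (-2.46 ± 0.44, adjusted p = 0.000124) and Hoxa13 0.106, 0.0694 and 0.225 CPM (-3.75 ± 1.02, adjusted p = 0.00742). In each of these 6 genes all 3 libraries lay below the WT cecum. The call of Hoxa4 (-0.90 ± 0.37, adjusted p = 0.0485) held in 6 of 13 alternatives, and the other 8 in all. A fit of only the groups compared also called Hoxb5 (-1.08, adjusted p = 0.00699) and Hoxb6 (-1.14, adjusted p = 0.00815) lower and Hoxb9 (1.38, adjusted p = 0.000932) higher. Hoxa2 (-2.15 ± 0.51, adjusted p = 0.00169) and Hoxa7 (-1.82 ± 0.48, adjusted p = 0.00359) completed the 9. Hoxa11 was again not called, at 2.87, 2.80 and 2.96 CPM (-0.23 ± 0.88, adjusted p = 0.850), and Hoxb9 stood at 181, 134 and 147 CPM (1.32 ± 0.95, adjusted p = 0.258). The comparisons of the Cdx2-/- and the Cdx2-/-;Apc+/- cecum share the WT libraries.

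Set against the Cdx2-/- cecum, the libraries with the added Apc allele held more of some Hoxa transcripts. 4 Hox genes were higher, all of them Hoxa, and 1 Hoxc gene was lower, where 3.93% of all genes tested were higher and 4.5% lower. Hoxa7 stood at 9.02, 9.20 and 9.09 CPM with the Apc allele, against 3.84, 1.58 and 0.992 CPM in set 1 and 1.63, 4.05 and 1.38 CPM in set 2 (2.02 ± 0.39, adjusted p = 0.00679). Every library with the Apc allele lay above all 6 without it, and this was so too for Hoxa9 (2.10 ± 0.48, adjusted p = 0.0140), Hoxa6 (1.62 ± 0.45, adjusted p = 0.0318) and Hoxa5 (1.56 ± 0.35, adjusted p = 0.0135). Hoxc5 was lower (-1.72 ± 0.48, adjusted p = 0.0353). With set 2 alone as the Cdx2-/- group none of the 30 Hox genes was called, where 0 of all 20502 genes were higher and 2 lower. With set 1 alone 9 Hox genes were called, where 1983 of all genes were higher and 2482 lower, without replicate 1 of set 1 10 were, and without replicate 2 of the Cdx2-/-;Apc+/- cecum 1 was. Without replicate 2 or 3 of set 1, or replicate 4 of set 2, 3 were. The summed fibroblast markers were 2384 to 2793 CPM with the Apc allele and 1450 to 2850 CPM without it, and their part in the result was not tested.

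In the libraries labelled Cdx2+/- cecum members of the Hoxc cluster were higher and members of the other clusters lower. Of the 30 tested Hox genes 5 were higher, all of them Hoxc, and 8 were lower (3 Hoxa, 3 Hoxb and 2 Hoxd), where 17.1% of all genes tested were higher and 17.3% lower. The median was 2.37 over Hoxc, -1.25 over Hoxa, -1.29 over Hoxb and -1.54 over Hoxd, against -0.05 over all genes tested. Hoxc8 measured 9.40, 1.58 and 2.88 CPM against 0.318, 0.251 and 0.193 CPM in the WT cecum (4.19 ± 1.11, adjusted p = 0.00642), Hoxc6 18.6, 3.89 and 6.01 against 1.38, 1.55 and 1.35 CPM (2.73 ± 0.74, adjusted p = 0.00764), and Hoxc9 8.90, 0.729 and 2.75 against 0.609, 0.523 and 0.505 CPM (2.91 ± 0.72, adjusted p = 0.00400). Each Cdx2+/- library was above each WT library in these 3 genes. Replicate 1 was higher than the other Cdx2+/- libraries in 7 of 7 tested Hoxc genes, as in Hoxc10, which measured 10.4, 0.973 and 3.53 CPM against 1.27, 0.795 and 0.817 CPM and was not called (2.37 ± 1.01, adjusted p = 0.0782). The WT libraries are those of the comparisons above.

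Hoxc4 (3.34, 0.747 and 1.92 CPM) and Hoxc5 (1.39, 0.573 and 1.12 CPM) completed the 5 (2.03 ± 0.61, adjusted p = 0.0141 and 1.78 ± 0.51, adjusted p = 0.0115). Without replicate 1 of the Cdx2+/- cecum the number of called Hox genes fell from 13 to 5, and Hoxc8 was the single Hoxc gene still called, because Hoxc4, Hoxc5, Hoxc6 and Hoxc9 lost their calls. Leaving out replicate 2 or replicate 3 of that group left 8 calls in either case.

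The lower Hoxa genes of the Cdx2+/- cecum were Hoxa3, Hoxa5 and Hoxa6. Hoxa5 measured 7.71, 4.64 and 4.98 CPM (-1.96 ± 0.43, adjusted p = 0.00163), Hoxa6 5.38, 2.21 and 2.05 CPM (-2.17 ± 0.54, adjusted p = 0.00408) and Hoxa3 6.80, 3.91 and 6.50 CPM (-1.37 ± 0.43, adjusted p = 0.0179), all below the WT range. Hoxa9 was at 61.9, 47.9 and 43.7 CPM, also below the WT range but short of a call (-1.32 ± 0.58, adjusted p = 0.0837), and Hoxa10 at 60.4, 37.8 and 35.2 CPM overlapped it (-0.67 ± 0.76, adjusted p = 0.528). Hoxb3, Hoxb4 and Hoxb5 were lower as well (-1.996 ± 0.65, adjusted p = 0.0226, -1.61 ± 0.52, adjusted p = 0.0208 and -1.82 ± 0.67, adjusted p = 0.0425). Hoxb4, as an example, measured 8.34, 6.48 and 7.91 CPM against 25.5, 23.5 and 20.5 CPM. Hoxd3 (-1.68 ± 0.54, adjusted p = 0.0200) and Hoxd8 (-1.09 ± 0.39, adjusted p = 0.0351) were the 2 Hoxd genes. A fit of only these 2 groups called 23 Hox genes in place of 13, Hoxa9 among them (-1.27, adjusted p = 0.00634). The calls of Hoxb4 and Hoxd8 each were lost in 4 of the 6 fits that left out 1 library, and that of Hoxb5 in 5.

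Markers of other tissues were higher in these 3 libraries than in the WT cecum, namely 6 of 7 ileum, 4 of 8 stomach and 6 of 6 squamous markers. Of the cecum and colon markers 4 of 7 were lower. Over all genes tested 17.1% were higher and 17.3% lower. Stomach and squamous markers also summed above the WT range in the 6 Cdx2-/- cecum libraries, at 1200 to 21608 and 14.2 to 45.0 CPM. Ileum markers, at 49.8 to 572 CPM there, overlapped the WT range. The part of these markers in the Hox differences of the libraries labelled Cdx2+/- cecum was not tested. Markers of the muscle layer were lower as well. The summed level of 10 smooth muscle markers was 259 to 763 CPM in the Cdx2+/- cecum and 1519 to 4720 CPM in the WT cecum, 10 of 10 were lower, and 8 of 10 enteric neuron and glia markers were lower too. In the Cdx2-/- cecum, where 26.2% of all genes tested were lower and 26.9% higher, the smooth muscle sum was 1660 to 3528 CPM. There 1 of 10 smooth muscle markers was lower, and 6 of 8 fibroblast markers were higher (1450 to 2850 against 462 to 1261 CPM). Epithelial markers summed to 26930 to 28160 CPM in the Cdx2+/- cecum, 15016 to 25543 CPM in the WT cecum and 7223 to 17161 CPM in the Cdx2-/- cecum, where 5 of 8 were lower and 1 was higher. Leukocyte markers summed to 90.0 to 229 CPM in the Cdx2-/- cecum and 54.0 to 111 CPM in the WT cecum, with 4 of 7 higher and 1 lower. The part of these cell types in the Hox differences was not tested.

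Compared directly, the Cdx2-/- cecum had less of most Hoxa transcripts than the libraries labelled Cdx2+/- cecum. Cdx2 itself was not lower in the Cdx2-/- libraries here. Each stood above each Cdx2+/- library, without a call (log2 fold change 0.83). In all, 11 Hox genes were lower (8 Hoxa and 3 Hoxc) and 3 were higher, where 20.6% of all genes tested were lower and 19.7% higher. Hoxa9 (-3.75 ± 0.49, adjusted p = 3.12e-05), Hoxa10 (-3.52 ± 0.65, adjusted p = 0.000532) and Hoxa7 (-2.93 ± 0.39, adjusted p = 3.90e-05) had the lowest values, and all 6 Cdx2-/- libraries were below all 3 Cdx2+/- libraries in each. The Cdx2+/- libraries held 21.2, 15.5 and 14.9 CPM of Hoxa7. Hoxa6 (-2.33 ± 0.44, adjusted p = 0.000631) and Hoxa5 (-2.06 ± 0.35, adjusted p = 0.000284) followed. Hoxc10 was lower (-2.28 ± 0.80, adjusted p = 0.0319), a call kept in 8 of 18 alternatives. The higher genes were Hoxb4 (1.64 ± 0.47, adjusted p = 0.0108), Hoxb3 (1.61 ± 0.59, adjusted p = 0.0356) and Hoxd8 (1.22 ± 0.35, adjusted p = 0.0106), and Hoxb9 came near the threshold (2.26 ± 0.91, adjusted p = 0.0548). With set 1 alone there were 7 calls, all lower, and without replicate 1 of the Cdx2+/- cecum there were 9. Without replicate 2 of the Cdx2+/- cecum none of the 3 higher calls was left and 11 genes were lower, and the call of Hoxb3 held in 10 of 18 alternatives. A fit of only the groups compared called 8 Hox genes higher and 11 lower, where 4636 of 19032 genes were higher and 4599 lower. Hoxb9 (2.26, adjusted p = 5.53e-05), Hoxb2, Hoxb5, Hoxb7 and Hoxb8 were the added higher genes. In this comparison 10 of 10 smooth muscle, 10 of 10 enteric neuron and glia and 8 of 8 fibroblast markers were higher, 6 of 8 epithelial markers were lower, and 6 of 7 ileum, 5 of 8 stomach and 5 of 6 squamous markers were lower. The part of these differences in the Hox calls was not tested.

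In the ileum no Hox gene passed the test between Cdx2-/-;Apc+/- and Apc+/-, where 0.395% of all genes tested were higher and 0.0488% lower. At an unadjusted p under 0.05 there were 4 genes in edgeR (Hoxa3, Hoxa10, Hoxc10 and Hoxd9), and DESeq2 called 2. Hoxa10 measured 2.68, 0.826 and 1.40 CPM with Cdx2-/-;Apc+/- and 0.0340, 0.483 and 0.0463 CPM with Apc+/-. Its groups did not overlap, and the fitted log2 fold change was 3.15 ± 0.98, adjusted p = 0.190. Hoxa9 measured 6.54, 4.90 and 9.21 against 1.09, 6.96 and 5.87 CPM, with overlap (0.57 ± 0.58, adjusted p = 0.862), and Hoxa5 2.70, 3.62 and 9.78 against 4.17, 6.07 and 12.02 CPM (-0.47 ± 0.42, adjusted p = 0.823). Hoxc10 had 37 reads, all in replicate 1, against 1 read, a ratio of 41.1 (95% counting interval 6.93 to 1666).

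Both ileum groups held a library with little Hoxb transcript, the one numbered 3. Hoxb9 was at 39.5, 20.2 and 1.58 CPM in the Apc+/- and 158, 56.8 and 0.938 CPM in the Cdx2-/-;Apc+/- ileum, and Hoxb6 at 15.2, 20.01 and 2.07 CPM and 47.3, 21.7 and 0.791 CPM. In replicate 3 of the Apc+/- ileum 7 of 8 tested Hoxb genes were lower than in replicates 1 and 2 (all but Hoxb2), and in replicate 3 of the Cdx2-/-;Apc+/- ileum 8 of 8 were. Among the 10 Hoxa genes this was so for 0 and for 1 (Hoxa2). Hoxb thus made up 20.6 to 79.5% of the summed level per kilobase in the Apc+/- ileum and 14.2 to 88.0% in the other. Hoxd3, Hoxd8 and Hoxd9 were also lowest in replicate 3 of the Cdx2-/-;Apc+/- ileum, at 4.11, 1.85 and 0.772 CPM for Hoxd8. So were Hoxc4, Hoxc5, Hoxc6, Hoxc8 and Hoxc9, and the Hoxc genes together stood at 7.46, 9.11 and 1.67 CPM per kb in its 3 libraries. Without both libraries numbered 3 the comparison still gave 0 calls.

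Whether the effect of the mutant genotype on Hox genes differed between cecum and ileum was tested as the difference of the 2 contrasts, Cdx2-/-;Apc+/- against WT in the cecum and against Apc+/- in the ileum. The effect was lower in the cecum for 6 Hox genes and higher for none, where 18.3% of all genes tested were lower and 16.4% higher. They were Hoxa10 (-5.81 ± 1.27, adjusted p = 0.00180), Hoxa9 (-3.54 ± 0.83, adjusted p = 0.00320), Hoxa6 (-2.76 ± 0.75, adjusted p = 0.00801), Hoxa5 (-1.99 ± 0.59, adjusted p = 0.0139), Hoxa3 (-1.78 ± 0.61, adjusted p = 0.0287) and Hoxc10 (-6.17 ± 2.06, adjusted p = 0.0276). The value for Hoxc10 rests on replicate 1 of the Cdx2-/-;Apc+/- ileum, without which it was 0.69 with an adjusted p of 0.674. The control of the cecum contrast lacks the Apc allele and the ileum libraries showed no fall of Cdx2, so region, Apc allele and extent of Cdx2 loss cannot be told apart here.

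Between the 2 regions of the Cdx2-/-;Apc+/- mice Hoxd genes were higher in the cecum and central Hoxc genes in the ileum. The test called 7 Hox genes higher in the cecum and 4 lower, where 6.6% of all genes tested were higher and 9.59% lower. Hoxd10 measured 3.38, 1.90 and 6.21 CPM in the cecum and 0.178, 0.0826 and 0 CPM in the ileum (5.48 ± 1.07, adjusted p = 0.00259), and Hoxd9 5.15, 4.97 and 5.68 against 1.03, 0.446 and 0.0736 CPM (3.37 ± 0.62, adjusted p = 0.00184). All 5 Hoxd genes tested were higher in the cecum without overlap. Hoxa11 had 401 reads in the cecum against 1 in the ileum, a ratio of 460 (95% counting interval 82.1 to 18220). The lower genes were Hoxc4, Hoxc5, Hoxc6 and Hoxc8, with Hoxc8 at 0.532, 0.324 and 0.245 CPM in the cecum and 7.72, 9.63 and 0.221 CPM in the ileum (-3.99 ± 1.08, adjusted p = 0.0174). A fit of these 2 groups alone called none of the 28 Hox genes that passed its filter, nor any other gene, so all 11 calls use the spread of the other groups.

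Most Hox genes of the Cdx2-/- cecum were above their stomach level. Against the WT stomach 20 of the 30 tested Hox genes were higher and 4 lower, where 19.7% of all genes tested were higher and 19.7% lower. The 4 lower genes were Hoxa4 (-2.26 ± 0.30, adjusted p = 8.40e-06), Hoxa2 (-1.77 ± 0.42, adjusted p = 0.00221), Hoxa3 (-1.33 ± 0.36, adjusted p = 0.00611) and Hoxa5 (-1.28 ± 0.36, adjusted p = 0.00762). These anterior and central Hoxa genes, at 2.94, 3.73 and 3.38 CPM for Hoxa5 in the stomach, were thus below the stomach level in the Cdx2-/- cecum. Hoxb9 was higher (8.94 ± 1.35, adjusted p = 3.45e-05), as was Hoxc6 (4.85 ± 0.86, adjusted p = 0.000182), and Hoxc10 was at least 21.3-fold higher. Hoxa9 and Hoxa10 were also still above the stomach, at log2 fold changes of 4.35 ± 0.72, adjusted p = 9.02e-05 and 4.23 ± 0.93, adjusted p = 0.00131.

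Genes that work with or on Hox genes were listed by role. Hox proteins bind DNA together with Pbx, Meis and Pknox cofactors, of which 2 of 9 were higher and 2 lower in the Cdx2-/- cecum, near the 26.9% higher and 26.2% lower of all genes tested. Pbx3 was higher, at 23.6 ± 2.08 CPM (SD, n = 6) against 6.35 ± 1.80 CPM (n = 3) in the WT cecum (1.89 ± 0.20, adjusted p = 3.57e-07), and Meis3 was lower (-1.14 ± 0.13, adjusted p = 7.18e-07). In the Cdx2+/- cecum, where 17.1% of all genes were higher and 17.3% lower, 2 of 9 were higher and 3 lower, with Pbx3 (1.03 ± 0.22, adjusted p = 0.00115) and Meis3 (-1.29 ± 0.16, adjusted p = 5.96e-06) called in the same directions against the same WT libraries.

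Retinoic acid activates low-numbered Hox genes, and of 13 tested genes of its synthesis, breakdown and binding 4 were higher and 2 lower in the Cdx2-/- cecum, beside those 26.9 and 26.2% of all genes. Aldh1a3, which makes retinoic acid, was higher (4.39 ± 0.36, adjusted p = 1.60e-08) as was Rdh10, which makes its precursor (2.31 ± 0.28, adjusted p = 1.75e-06), and Aldh1a1, another synthetic enzyme, was lower (-3.64 ± 0.34, adjusted p = 7.37e-08). In the Cdx2+/- cecum 8 were higher and 3 lower, beside 17.1 and 17.3% of all genes. Of 17 Polycomb and Trithorax group genes and other histone modifiers, which hold Hox clusters off or on, 2 were higher and 4 lower in the Cdx2-/- cecum, both below the shares over all genes. Dot1l, a histone methyltransferase, was lower (-1.42 ± 0.16, adjusted p = 6.53e-07), Rnf2, a Polycomb ubiquitin ligase, was lower (-0.71 ± 0.12, adjusted p = 9.03e-05), and Cbx7, a Polycomb reader, was higher (1.35 ± 0.19, adjusted p = 8.19e-06).

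Of 7 tested genes that border the clusters 1 was lower in the Cdx2-/- cecum and none higher, against 26.2% of all genes lower and 26.9% higher. The lower one was Evx1, a homeobox gene next to Hoxa13, at 0.556, 0.481 and 0.0446 CPM in the WT cecum and 0.0290 ± 0.0370 CPM (SD, n = 6) in the Cdx2-/- cecum (-3.45 ± 1.11, adjusted p = 0.0135). Skap2, at the other side of the Hoxa cluster, was not called (0.07 ± 0.13, adjusted p = 0.653), and neither was Mtx2, beyond the Hoxd cluster (-0.06 ± 0.13, adjusted p = 0.749).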

How the data were processed

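RNA was sequenced from 24 mouse gut libraries in 8 groups of 3. The authors deposited whole-number read counts per Ensembl gene, made with CASAVA, TopHat2 2.0.11, HTSeq 0.5.3p3 and GRCm38 per the submitters' processing notes. The sources used here give neither counting options nor the annotation release. Entries that name no gene were left out of library sizes. Gene names and exon lengths came from GENCODE's GRCm38 annotation. Counts were normalised by TMM and tested with edgeR 4.0.16 (quasi-likelihood F-test, filterByExpr, 1 fit over all libraries with 16 residual degrees of freedom, 20502 genes) in R 4.3.3. P-values were adjusted by Benjamini-Hochberg over all genes tested, and a gene was called under 0.05. The 2 Cdx2-/- sets were averaged. The SE of a log2 fold change was taken as its absolute value divided by the square root of the F statistic. Intervals of fold changes are normal 95% intervals from that SE. The fit was tested on simulated data. Alternatives were DESeq2 1.42.0, no filter, only the groups compared, each set alone, a replicate block and leaving out each library. Named genes were the called members with the largest fold changes, up to 6 in each direction, with a mean of at least 0.5 CPM in a compared group, with paralog groups 9, 10 and 13 and the 3 highest genes per kilobase; other members with no call or chosen after their values were seen are named to account for the family. The members and lists were chosen with earlier results of these data known. Values of 2 further genes are not reported here.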

Additional observations from a re-analysis of the deposited data

Results flagged for a closer look

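Among the 6 Cdx2-/- cecum libraries, 29 Hox genes were examined for a library whose gap to its neighbour exceeded Dixon's 95% critical share of the group's range. 2 members had one, where chance gives about 1 in 20. Hoxb7 was at 29.8 CPM in replicate 6 of set 2, below the other 5 libraries. Hoxb13 was at 2.61 CPM in replicate 1 of set 1, above the others, and this was the library that differed from replicates 2 and 3 of its set in most Hoxa and Hoxd genes.

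In 6 Hox genes the effect of the mutant genotype differed between cecum and ileum in the test of the difference itself. The log2 values, cecum minus ileum, were -5.81 for Hoxa10, -3.54 for Hoxa9, -2.76 for Hoxa6, -1.99 for Hoxa5, -1.78 for Hoxa3 and -6.17 for Hoxc10. No fall of the targeted transcript was detected in the ileum, and its part in these differences was not tested.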

How the results depend on the processing

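Of 1294 values of the 84 named Hox differences under alternatives, 1146 kept their direction and their side of the threshold, 147 lost the call and 1 changed sign: Hoxc10 in the difference between cecum and ileum, at 0.69 without replicate 1 of the Cdx2-/-;Apc+/- ileum and from -7.97 to 0.69 over the fits that each left out a library. For 46 of the 84 every alternative run kept the call. The number of called Hox genes changed by over 1.5 times in these cases, and the cause was not tested where fewer libraries or genes do not give it. With set 2 alone it went from 14 to 9 in the Cdx2-/- cecum against WT and from 5 to 0 in the Cdx2-/-;Apc+/- against the Cdx2-/- cecum, and with set 1 alone from 14 to 7 in the Cdx2-/- against the Cdx2+/- cecum and from 5 to 9 in the Cdx2-/-;Apc+/- against the Cdx2-/- cecum. With replicates 2 and 3 of set 1 taken as 1 library the last became 3 and the count between the sets went from 2 to 0. Between the sets it was 0 without a filter and 4 in DESeq2, and between the ileum groups DESeq2 called 2 in place of 0. With only the groups compared it was 23 in place of 13 for Cdx2+/- and 0 in place of 11 for cecum against ileum.

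Leaving out 1 library gave 11 to 18 calls for Cdx2-/- against WT, 5 to 12 for Cdx2+/- against WT, 9 to 15 for Cdx2-/- against Cdx2+/-, 8 to 9 for Cdx2-/-;Apc+/- against WT, 1 to 10 for Cdx2-/-;Apc+/- against Cdx2-/-, 0 to 8 between the sets, 0 to 0 between the ileum groups, 7 to 14 for cecum against ileum, 23 to 25 for the stomach and for the Apc+/- ileum against the WT cecum, 22 to 25 for Cdx2-/- cecum against stomach and 4 to 9 for the difference between cecum and ileum.

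Same-numbered libraries showed no strong shared deviation (correlations from -0.298 to 0.33, and in 0 of 12 pairs of groups all above 0.1). With 3 libraries per group this cannot exclude a shared animal, litter or day. The fit of all libraries did not pair them. With a replicate block on the libraries that share numbers, Cdx2-/- against Cdx2+/- had 7 calls (7 for the same libraries unblocked) and Cdx2-/-;Apc+/- against Cdx2-/- had 9 (8 unblocked). In the other comparisons with shared numbers the replicate block gave counts within 1.5 times the reported ones, such as 18 for Cdx2-/- against WT.

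Genes with few reads are limited by depth: for Hox genes at 0 only bounds are given.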
